A study of Bos taurus with 2 samples.

Results

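The LIF/IL6 receptor and STAT3 pathway was examined in pools of bovine embryos produced by in-vitro fertilization (IVF). Its 10 genes, LIF, LIFR, IL6, IL6R, IL6ST, JAK2, STAT3, SOCS3, PTPN11 and PIM1, were chosen by symbol from the 21209 gene symbols with RNA-Seq values, and all 10 were found. The study compared 1 pool of embryos injected with siRNA against CDKN1C, an imprinted inhibitor of the cell cycle, with 1 pool of sham-injected embryos. Sham embryos were punctured by the needle without receiving siRNA. Neither pool used here received a control siRNA, so loss of CDKN1C and the introduction of siRNA cannot be told apart. Embryos of both pools came from the same IVF system, were stripped of cumulus cells and cultured in SOF medium, and the RNA of each pool was amplified before sequencing. The sires and the number of embryos in each pool, and the siRNA dose and the day of collection for these pools in particular, are not given in the sources used here. CDKN1C itself was 49.5 FPKM in the sham pool and 14.6 FPKM in the injected pool. FPKM counts sequenced fragments scaled to the length of the transcript and to the library, here through an upper-quartile measure of its size. It carries no read count, and the depth of both libraries is unknown. Levels of different genes are set side by side below, but the effect of RNA amplification on such ratios was not tested. With a single library for each group, no difference below has a replicate check, an error or a p-value.

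Cytokines of the IL6 family act through receptors that share the signal-transducing chain gp130, the product of IL6ST. LIF binds LIFR and IL6 binds IL6R, and each complex then engages gp130, to which Janus kinases (JAKs) are attached. The JAKs phosphorylate gp130 and STAT3, which enters the nucleus and turns on targets such as SOCS3 and PIM1, while the phosphatase SHP2, encoded by PTPN11, links gp130 to the RAS-MAPK cascade. SOCS3 binds gp130 and JAKs and shuts the signal off. LIF is best known in embryology for keeping mouse embryonic stem cells pluripotent through STAT3, and LIF made by the uterus is needed for implantation in mice.

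The LIF branch was listed at 0 in both pools, while the IL6 branch had measurable levels in both. LIF, on chromosome 17 of bosTau7 from 72538227 to 72542541, and LIFR, on chromosome 20 from 38014120 to 38064785, were 0 FPKM in the sham pool and 0 FPKM in the injected pool. OSM, which encodes oncostatin M and is the next locus beside LIF at a distance of 16168 bases, was also 0 FPKM in both pools, and so were the cytokine gene CTF1 and the receptor gene CNTFR. These 3 genes were named after their values were seen. A value of 0 was common in these files. Of 21605 loci with a symbol, 25.8% were 0 in both pools, among them 2 of 76 genes of cytosolic ribosomal proteins, RPL10L and RPL3L, forms known from testis and muscle. The same held for 1 of 37 proteasome subunit genes, PSMB11, a form known from the thymus, and for 0 of 11 genes for subunits of RNA polymerase II. Without read counts, the highest level that could have gone unseen at LIF or LIFR cannot be given.

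IL6, the ligand gene, lies on chromosome 4 from 32395007 to 32400688. It was 4.89 FPKM in the sham pool and 4.40 FPKM in the injected pool, and a second locus with this symbol, of 638 bases on chromosome 8 from 24706373 to 24707010, was 0 in both. IL6R, which encodes the ligand-binding receptor, on chromosome 3 from 17270993 to 17323225, was 7.91 FPKM in the sham pool and 8.09 FPKM in the injected pool. IL6ST, on chromosome 20 from 24678688 to 24835985, was 4.24 FPKM in the sham pool and 4.83 FPKM in the injected pool. The microRNA gene MIR2359 is listed at the same coordinates as IL6ST with 0 FPKM in both pools, and no other locus overlapped that of a pathway gene. Ligand and both receptor chains were thus within a ratio of 1.14 between pools. On the FPKM scale IL6R stood above IL6ST in each library, with a ratio of 1.67 in the injected pool and 1.87 in the sham pool.

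Among the kinases, JAK2 had the lowest level above 0 of the 10 genes. Located on chromosome 8 from 41428480 to 41495502, it was 0.153 FPKM in the sham pool and 0.201 FPKM in the injected pool, above 46.3% of all symbols in the sham pool and above 49.4% in the injected pool. JAK1, its relative that also binds gp130, was 1.10 FPKM in the sham pool and 1.24 FPKM in the injected pool, 7.19 times the level of JAK2 in the sham pool and 6.20 times in the injected pool. TYK2, the other kinase attached to gp130, was 0.750 FPKM in the sham pool and 0.467 FPKM in the injected pool. JAK3, best known from lymphocytes, was 0.276 FPKM in the sham pool and 0 FPKM in the injected pool. JAK1 therefore had the highest level of the 4 kinases in both libraries, followed by TYK2, and the order of JAK2 and JAK3 differed between them.

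STAT3 had the highest level of the 6 STAT genes reported here in both pools. It lies on chromosome 19 from 43431658 to 43505544, and was 2.80 FPKM in the sham pool and 2.02 FPKM in the injected pool. STAT5A, whose locus ends 2452 bases before that of STAT3, was 0.0617 FPKM in the sham pool and 0.0570 FPKM in the injected pool. The next of these in level was STAT2, a mediator of interferon signals, at 0.176 FPKM in the sham pool and 0.311 FPKM in the injected pool. STAT3 was 6.50 times the level of STAT2 in the injected pool and 15.9 times its level in the sham pool. STAT4 was 0.0274 FPKM in the sham pool and 0.135 FPKM in the injected pool. STAT5B was 0 FPKM in the sham pool and 0.0379 FPKM in the injected pool, and STAT6 was 0 FPKM in both. None of the 5 STAT genes set beside STAT3 reached a mean of 1 FPKM.

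Of the STAT3 targets PIM1 and SOCS3, the first had a measurable level and the second was listed at 0. PIM1, which encodes a serine/threonine kinase that promotes survival, on chromosome 23 from 11424571 to 11430323, was 8.63 FPKM in the sham pool and 8.66 FPKM in the injected pool. It stood above 84.6% of all symbols in the injected pool and above 83.1% in the sham pool. SOCS3, on chromosome 19 from 55003553 to 55004253, was 0 FPKM in both pools. Its locus spans 701 bases, and of the 1745 loci with a symbol that span up to 1000 bases, 67.2% were 0 in both pools, against 18.1% of loci over 10000 bases. The part of locus length in the value of SOCS3 was not tested. PIM1 was 4.28 times the level of STAT3 in the injected pool and 3.09 times in the sham pool.

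PTPN11 had the highest level of the 10 genes in both pools and the largest difference between them. The gene lies on chromosome 17 from 64751040 to 64797495 and was 11.5 FPKM in the sham pool and 21.4 FPKM in the injected pool, a ratio of 1.86. It stood above 91.1% of all symbols in the injected pool and above 85.6% in the sham pool. Relative to IL6ST, whose product recruits SHP2, PTPN11 was 4.43 in the injected pool and 2.72 in the sham pool, ratios within a library that do not depend on how the libraries are scaled.

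**Figure D1:**
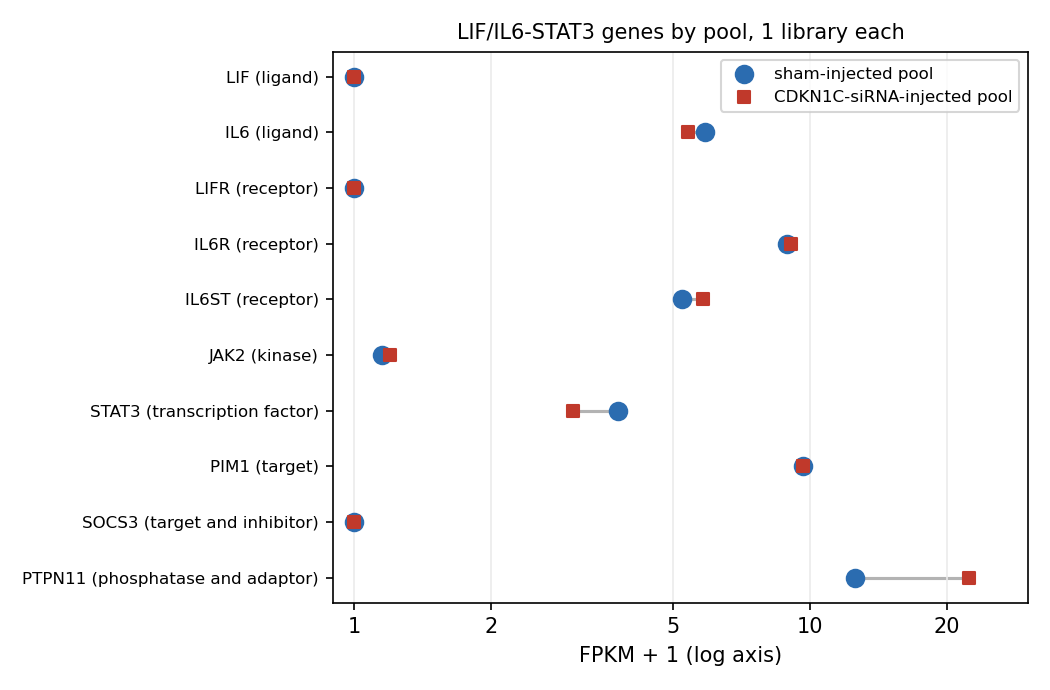
FPKM + 1 (horizontal, log axis) of the 10 genes of the LIF/IL6 receptor and STAT3 pathway, with the role of each in brackets, with blue circles for the sham-injected embryos and red squares for those injected with CDKN1C siRNA, a single library for either group. LIF, LIFR and SOCS3 lie at 0 FPKM in both pools, the symbols of IL6R and PIM1 nearly coincide, and PTPN11 is farthest apart, at 11.5 FPKM (sham) and 21.4 FPKM (injected).

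To compare the pools, 1 FPKM was added to both values of a gene and the log2 ratio of injected to sham was taken, which understates the change of genes with low values. It was read for the 7984 genes whose mean over the pools was 1 FPKM or more, and a difference of 2-fold on this scale was counted. Of the 10 pathway genes, 6 reached this mean, JAK2 was below it and 3 were 0 in both pools. None of the 6 was 2-fold higher, where 4.92% of all genes were, and none was 2-fold lower, where 15.7% of all genes were. With 6 genes these counts set the pathway apart from other genes in neither direction. The log2 difference was 0.84 for PTPN11, 0.15 for IL6ST, 0.029 for IL6R, 0.0044 for PIM1, -0.12 for IL6 and -0.33 for STAT3. Their median was 0.017, beside a median of -0.17 over all 7984 genes.

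Most of the 6 genes lay in the middle of the distribution. A difference as high as that of PTPN11 or higher was found for 611 genes, 7.65% of those compared. For IL6ST this share was 34.0%, for IL6R 40.2%, for PIM1 41.4% and for IL6 47.8%. STAT3 lay below the median, with 41.9% of genes as low or lower. By a fold of 1.5, chosen after the data were seen, PTPN11 was higher in the injected pool, as 14.9% of all genes were. The other 5 were within 1.5-fold, and 0 of the 6 were lower by this fold, as 30.5% of all genes were.

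**Figure D2:**
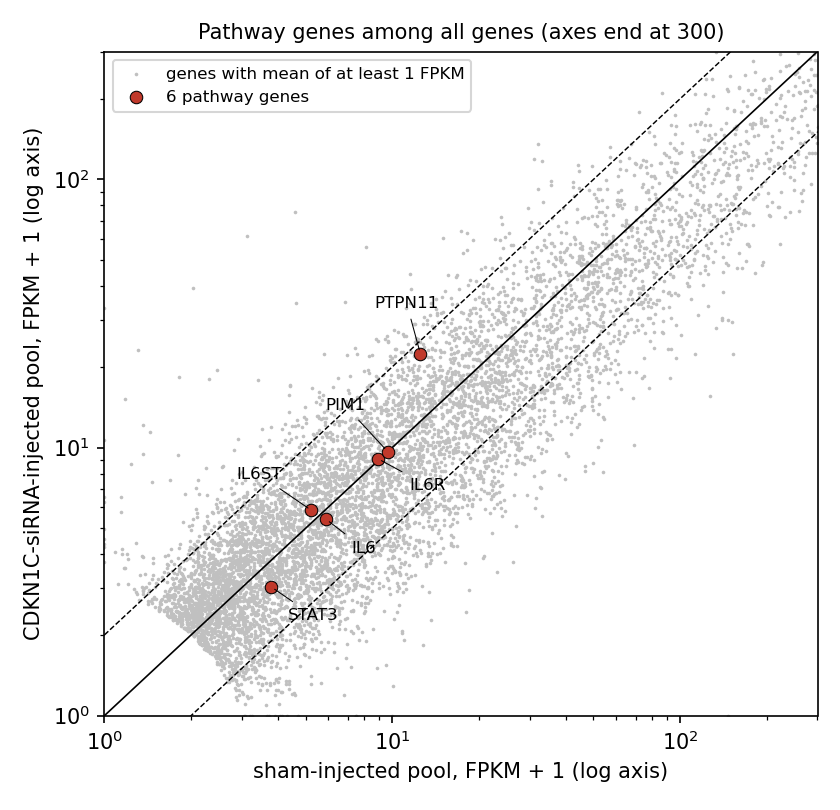
Level of single genes as FPKM + 1, on log axes, with sham-injected embryos on the horizontal and siRNA-injected embryos on the vertical axis; axes end at 300, so that genes above this are not shown. Grey points show genes whose mean is 1 FPKM or more, red points the 6 pathway genes among them; the solid line is equality and dashed lines are 2-fold differences. PTPN11 lies just inside the upper dashed line and the other 5 near the line of equal values.

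The sign of the difference for IL6 turned with the scale between the pools and with a fit on locus length. The summed FPKM of all symbols was 1015650 in the injected pool and 1336860 in the sham pool. Scaling both pools to the same total moved the median difference of all genes from -0.17 to 0.17, and setting this median to 0 moved each difference up by 0.17. PTPN11 was then 2-fold higher, at 1.22 with the same total and just past 1 with the median at 0, as were 12.6% and 7.72% of all genes under these scalings, while 0 pathway genes were 2-fold lower, where 7.58% and 11% of all genes were. IL6 changed sign, to 0.21 with the same total and 0.043 with the median at 0. STAT3 stayed below 0 under both, at -0.052 and -0.16. IL6R, IL6ST and PIM1 stayed above 0 under both scalings, between 0.17 and 0.49, while after a loess fit on locus length IL6R was at -0.052 and IL6 at 0.39. After that fit 7.52% of all genes were 2-fold higher and 8.6% lower, and 0 pathway genes were either.

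Settings other than the scale left the count of pathway genes past 2-fold at 0 in both directions. The background with a pseudocount of 0.1 was 8.67% of genes higher and 20.5% lower, and with a pseudocount of 5 it was 1.49% and 7.49%. Without the filter on low values, when JAK2 entered at a log2 difference of 0.058, it was 2.69% and 8.3%. With a mean of 5 FPKM or more, which left IL6R, PIM1 and PTPN11, it was 4.96% and 19.6%, and with the highest locus of each symbol 4.94% and 15.7%.

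**Figure D3:**
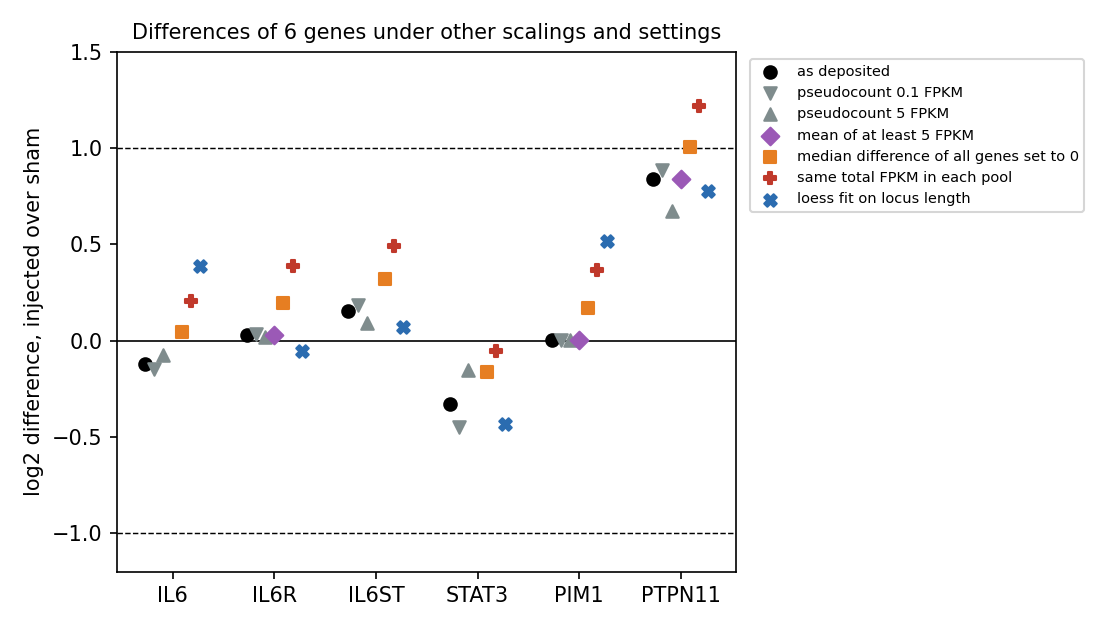
Log2 difference of injected over sham (vertical) for the 6 pathway genes as deposited (black circles) and under 6 other scalings or settings, 1 library for each pool; dashed lines mark 2-fold differences. PTPN11 lies above 0 throughout, from 0.67 to 1.22, STAT3 lies below 0 throughout, from -0.45 to -0.052, and IL6 and IL6R have values on both sides of 0.

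Other genes of the pathway were taken from a list of 67 ligands, receptors, kinases, STATs, inhibitors, adaptors and targets, of which 61 were found and 31 had a mean of 1 FPKM or more. After siRNA injection 5 of these 31 were lower by 2-fold or more and 0 were higher, that is 16.1% lower beside the 15.7% of all genes. The median log2 difference of the 31 was -0.36, beside -0.17 over all genes. With totals made equal, 2 of 34 were lower and 3 higher, where 7.58% and 12.6% of all genes were. With the median of all genes at 0, 4 of 31 were lower and 1 higher, where 11% and 7.72% of all genes were. After the fit on locus length 1 was lower and 3 were higher, where 8.6% and 7.52% of all genes were. The genes counted as higher were SOCS4, MAP2K1 and VEGFA with equal totals, VEGFA with the median at 0, and SOCS2, SOCS4 and VEGFA after the length fit; those still lower were PTPN6 and MAPK3 with equal totals, PTPN6, PIAS4, MAPK3 and PIM2 with the median at 0, and PIAS4 after the length fit. The shares of higher and lower calls over all genes moved in the same directions as these counts.

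Among other ligand and receptor genes of the family listed here, IL27 and IL11RA had means above 1 FPKM. IL27, a subunit of the cytokine IL-27, was 6.75 FPKM in the sham pool and 3.53 FPKM in the injected pool. IL11RA, the receptor chain for IL11 that also pairs with gp130, was 4.40 FPKM in the sham pool and 1.98 FPKM in the injected pool, with a log2 difference of -0.86. OSMR, CNTFR, IL27RA and LEPR were under 1 FPKM in both pools. Of the 7 ligand-binding receptors examined, LIFR included, IL6R and IL11RA were those with a mean above 1 FPKM.

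Of 10 inhibitors with a mean of 1 FPKM or more, 7 were lower and 3 higher after siRNA injection, where 4655 of all 7984 genes were lower and 3329 higher. Of the lower inhibitors 2 passed 2-fold, beside 15.7% of all genes, which sets them apart from other genes in neither count. PTPN6, which encodes SHP1, a phosphatase related to SHP2 that dampens JAK signals, was 5.22 FPKM in the sham pool and 1.44 FPKM in the injected pool, a log2 difference of -1.35. Its direction was opposite to that of PTPN11, as deposited, under both scalings and after the length fit. PTPN11 was 14.8 times the level of PTPN6 in the injected pool and 2.21 times in the sham pool. PIAS4, a SUMO ligase of the family that inhibits STATs, was 12.8 FPKM in the sham pool and 4.75 FPKM in the injected pool, with a log2 difference of -1.26. PTPN1, another phosphatase of JAKs and the inhibitor with the highest level, was 16.7 FPKM in the sham pool and 12.6 FPKM in the injected pool.

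Within the SOCS family, the classical feedback inhibitors of cytokine receptors, SOCS1, SOCS2, SOCS4 and CISH had means above 1 FPKM while SOCS3 was listed at 0. SOCS1, which blocks JAKs directly, was 7.36 FPKM in the sham pool and 3.54 FPKM in the injected pool. SOCS2, an inhibitor of growth hormone signals, was 2.61 FPKM in the sham pool and 4.70 FPKM in the injected pool, and SOCS4 was 2.26 FPKM and 4.49 FPKM in the same order. CISH, a target of STAT5, was 3.57 FPKM in the sham pool and 2.24 FPKM in the injected pool. None of these 4 differed by 2-fold on the log2 scale after adding 1 FPKM, with differences from -0.88 for SOCS1 to 0.75 for SOCS4. SOCS5 and SOCS6 were at most 0.266 FPKM and 0.228 FPKM in either pool, and SOCS7 was 0.746 FPKM in the sham pool and 0 FPKM in the injected pool.

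Along the branch from gp130 to MAPK, MAPK3, which encodes ERK1, was 2.98 FPKM in the sham pool and 0.575 FPKM in the injected pool, a log2 difference of -1.34. SHC1, an adaptor upstream of RAS and the gene of this branch with the highest level, was 52.3 FPKM in the sham pool and 38.0 FPKM in the injected pool. In this branch 7 genes had a mean of 1 FPKM or more, and siRNA injection left 3 of them higher and 4 lower. Over all 7984 genes the split was 3329 to 4655 in the same order. MAPK3 was the 1 gene of these 7 past 2-fold as deposited, and 15.7% of all genes were lower by this fold. It reached a mean of 1 FPKM only through the sham pool. It stayed past 2-fold with equal totals and with the median at 0, at -1.18 and -1.17. After the length fit it was within 2-fold, at -0.87. ADAM10, a protease that can release the IL6 receptor from the cell surface, was 0.546 FPKM in the sham pool and 1.54 FPKM in the injected pool. Its mean, 1.04 FPKM, was close to the limit for comparison, and its log2 difference of 0.71 was within 2-fold.

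Of the other targets of STAT3 with a mean of 1 FPKM or more, most lay within 2-fold, as PIM1 did. PIM2, a kinase gene related to PIM1, was 9.13 FPKM in the sham pool and 3.34 FPKM in the injected pool, a log2 difference of -1.22. PIM1 was thus 2.59 times the level of PIM2 in the injected pool and 0.945 times in the sham pool. CEBPD, a transcription factor gene that cytokines induce through STAT3, had the highest level of the listed targets, at 297 FPKM in the sham pool and 136 FPKM in the injected pool, a log2 difference of -1.12. The 10 listed targets with a mean of 1 FPKM or more split into 5 higher and 5 lower after siRNA injection. Of all 7984 genes, 3329 were higher and 4655 lower. Those past 2-fold as deposited were PIM2 and CEBPD, 2 of 10 beside 15.7% of all genes. VEGFA was 16.3 FPKM in the sham pool and 31.2 FPKM in the injected pool, a log2 difference of 0.89. With equal totals, the median at 0 and the length fit it was 2-fold higher, at 1.28, 1.06 and 1.16, as were 12.6%, 7.72% and 7.52% of all genes. CEBPD was within 2-fold in these settings, at -0.72, -0.95 and -0.64, and PIM2 was at -0.91, -1.06 and -0.71. KLF4, a pluripotency factor gene, and FOS, an early response gene, were close to equal in the pools, with log2 differences of -0.087 and 0.12. Of the 16 targets found, GBX2 was 0 FPKM in both pools, a count of 1 named after its value was seen. PIM3 was on the list, but its symbol was not found among those with values.

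**Figure D4:**
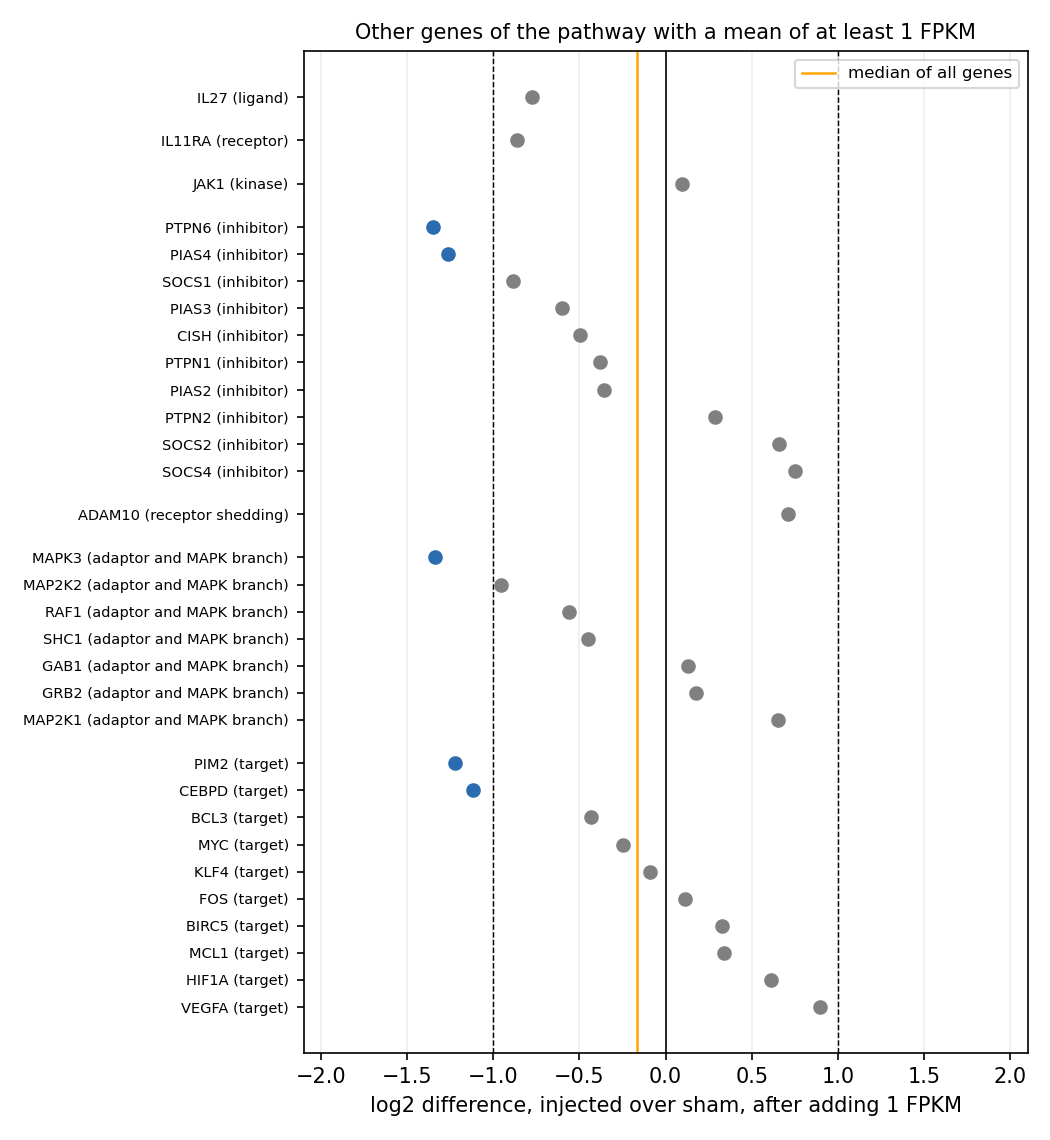
Log2 difference of injected over sham (horizontal) for 31 other genes of the pathway, grouped by role, 1 library for each pool. Blue points are lower by 2-fold or more after siRNA injection, grey points lie within 2-fold, dashed lines mark 2-fold and the orange line the median of all genes at -0.17; PTPN6 lies farthest from 0, at -1.35, and no gene reaches 2-fold higher.

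Markers of cell lineages differed between the pools as well. The epithelial keratins KRT18 and KRT8, abundant in trophectoderm, were 11245 and 5389 FPKM and 5760 and 1610 FPKM in the sham and the injected pool, the order of all pairs of values that follow. The summed level of 9 trophectoderm markers, 17580 FPKM in the sham pool and 7482 FPKM in the injected pool, consisted mostly of these keratins. Of the 9, 6 were lower and 3 higher after siRNA injection. As deposited, KRT8, KRT18 and CDX2 were lower by 2-fold or more, at -1.84, -1.06 and -1.12, as were 15.7% of all genes. TFAP2C, ELF5 and PTGS2 were higher, with log2 differences of 0.25, 0.37 and 0.64. With the median of all genes set to 0, KRT18 and CDX2 fall within 2-fold and KRT8 does not. Markers were not read with equal totals or after the length fit. POU5F1 and NANOG, genes of the pluripotent inner cells, were 170 and 56.3 FPKM and 23.9 and 15.1 FPKM, and the sum of 5 such markers, carried mostly by POU5F1, was 208 and 84.2 FPKM. SOX2 was 5.87 and 4.37 FPKM and LIN28B 7.49 and 8.48 FPKM. For 5 hypoblast markers the sum was 19.3 and 17.8 FPKM, with SOX17 at 0 in both pools and GATA6 at 13.7 and 14.0 FPKM. HNF4A was 3.78 and 1.16 FPKM, and in the other direction PDGFRA was 1.82 and 2.58 FPKM.

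Markers listed for cumulus and granulosa cells, for fibroblasts and mesenchyme and for leukocytes were read as well. Whether their transcripts came from embryo cells or from other cells was not tested. For 10 cumulus and granulosa markers the sum was 30.7 and 16.5 FPKM, led by HSD3B1 at 15.7 and 3.29 FPKM and FSHR at 5.69 and 4.87 FPKM, with PTX3 and AMH at 0 in both pools. Most of the fall in this sum was in HSD3B1, and INHBA was 2.05 and 3.08 FPKM. For 8 fibroblast and mesenchyme markers the sum was 2.84 and 26.0 FPKM, led by VIM at 1.46 and 18.5 FPKM. LUM was 0.138 and 4.77 FPKM, and COL1A1 was 0 in both pools. THY1, at 0.111 and 0.0532 FPKM, and PDGFRB, at 0.0319 and 0 FPKM, went the other way. Of this list, 3 markers had a mean of 1 FPKM or more. Of these, VIM and LUM were higher by 2-fold or more, beside 4.92% of all genes. LUM reached this mean only through the injected pool, and the paper names it among the genes raised there. The share of this list is therefore not comparable with that of all genes. Leukocyte markers summed to 3.40 and 5.86 FPKM over 6 genes, led by AIF1 at 2.24 and 5.19 FPKM, with CD3E at 0 in both. CD68 was 0.229 and 0.617 FPKM, and in the other direction CD14 was 0.832 and 0 FPKM and LYZ 0.0909 and 0.0354 FPKM. In pools of whole embryos, fewer cells of a type and less RNA per cell cannot be told apart. The part of cell composition in the values of PTPN11, PTPN6 and the other pathway genes was not tested.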

How the data were processed

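RNA-Seq values of 1 pool of CDKN1C-siRNA-injected and 1 pool of sham-injected bovine IVF embryos were used. The deposited FPKM values were made by the authors with Cufflinks 2.0.2 from reads that TopHat had aligned to bosTau7, normalized to the upper quartile and corrected for sequence bias. The annotation behind the 22220 loci is not given in the sources used here. Of these, 615 carry no symbol and were left out. Loci of the same symbol were summed.

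A difference was log2 of injected over sham FPKM after adding 1, for genes whose mean was 1 FPKM or more, and a fold of 2 was counted. There was no test, since each group is 1 library. The pathway genes and lists were chosen with earlier results of these data known. Named genes were the 10 pathway genes, relatives of JAK, STAT, SOCS and PIM, ligands and receptors above 1 FPKM, genes differing by 2-fold, the highest gene of each role, the top 2 of each marker list by mean and CDKN1C. KLF4, FOS, SOX2, the values of VEGFA and markers that went against the direction of their list were added after the values were seen. Ratios of JAK1 to JAK2, STAT3 to STAT2, PTPN11 to PTPN6 and PIM1 to PIM2 were chosen after the values were seen. Some genes of the lists are not reported here. No sequences were used. The alternatives tried were no filter or a mean of 5 FPKM or more, a pseudocount of 0.1 or 5, equal totals, the median difference set to 0, the locus with the highest mean, a loess fit on locus length (span 0.3) and, added later, a fold of 1.5. Software was statsmodels 0.14.6, NumPy 2.4.6, matplotlib 3.10.9 and pandas 2.3.3 in Python 3.11.15.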

Additional observations from a re-analysis of the deposited data

How the results depend on the processing

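Each group is a single library, so the spread between pools and the depth behind the FPKM values are unknown. No paired analysis was possible because each group holds 1 pool. The count of pathway genes at least 2-fold lower was 0 under each of the 8 alternatives, and 0 were lower by a fold of 1.5. The count at least 2-fold higher was 0, and became 1, PTPN11, with the same total FPKM and with the median difference set to 0. By the lower threshold of 1.5-fold, PTPN11 was also the 1 gene counted as higher. The median difference of the pathway genes, 0.017, was 0.012 with a pseudocount of 5, 0.029 with no filter or with a mean of at least 5 FPKM, 0.38 with the same total, 0.18 with the median set to 0 and 0.23 after the loess fit on locus length. For the other genes of the pathway, 5 were lower in the values as deposited. This count was 8 with a pseudocount of 0.1, 1 with a pseudocount of 5, 3 with a mean of at least 5 FPKM, 2 with the same total, 1 after the loess fit and 10 at a fold of 1.5. The number higher, 0 as deposited, was 2 with a pseudocount of 0.1, 3 with the same total, 1, VEGFA, with the median set to 0, 3 after the loess fit and 6 at a fold of 1.5. The shares of all genes lower in these settings were 20.5% with a pseudocount of 0.1, 7.49% with a pseudocount of 5, 19.6% with a mean of at least 5 FPKM, 7.58% with equal totals, 8.6% after the loess fit and 30.5% at a fold of 1.5, beside 15.7% as deposited. Higher were 8.67% with a pseudocount of 0.1, 12.6% with equal totals, 7.72% with the median set to 0, 7.52% after the loess fit and 14.9% at a fold of 1.5, beside 4.92% as deposited. Of the 5 lower genes, those still lower numbered 5, 1 and 3 with a pseudocount of 0.1, a pseudocount of 5 and a mean of at least 5 FPKM, 2 with the same total, 4 with the median set to 0 and 1 after the loess fit. The causes of these shifts were not tested beyond the construction of each alternative. Ratios within a pool were the same with the locus of the highest mean.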
